A study of Mus musculus with 211 samples.

Results

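The respiratory chain of the inner mitochondrial membrane was examined in single cells sorted from the adult mouse cochlea. Members were the protein-coding genes whose symbols begin with Nduf (followed by a, b, c, s or v), Uqcr, Sdh (a to d), Cox4 to Cox8, Atp5 or mt-. This gave 110 of the 48709 genes in the table, with 97 encoded in the nucleus and 13 in the mitochondrial genome. By complex, the nuclear members comprised 38 genes of complex I and 8 of its assembly, 4 of complex II and 4 of its assembly, 8 of complex III, 18 of complex IV and 17 of ATP synthase. The mt- members comprised 7 genes of complex I, 1 of complex III, 3 of complex IV and 2 of ATP synthase.

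The cells came from CD1 mice of either sex that carry the Lfng-EGFP BAC transgene (HM340Gsat), in which the Lfng regulatory region drives GFP in supporting cells (SCs). Both ages carried the transgene, and the labels name no treatment. GFP-positive cells were sorted by FACS at P60 or P120 and captured on the Fluidigm C1, a microfluidic device that isolates single cells, where full-length cDNA was made of every cell on its own. In all, 211 cells were available, collected in 8 captures at P60 and 4 captures at P120. A capture is a chip loaded with cells pooled from several animals and was taken as the replicate, so that variation between single animals cannot be told apart from variation between captures.

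Complexes I to IV pass electrons from NADH and succinate to oxygen and, except for complex II, pump protons that ATP synthase uses to make ATP. Most subunits are encoded in the nucleus and imported, while the mitochondrial genome encodes core subunits of every complex except complex II, transcribed from both strands as long polycistronic RNAs. In bone marrow, neutrophil precursors carry more mitochondria than mature neutrophils, which rely largely on glycolysis.

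The label of the sorted population was compared with its markers. Taking a cell as positive for a marker list when it had 10 or more reads on at least 3 of its genes, 6 of 211 cells (2.84%) were positive for the SC list, 178 (84.4%) for the neutrophil list and 169 (80.1%) for the leukocyte list. No cell was positive for the hair cell list, which allows a share of up to 1.42%. None was positive for the endothelial list either. The authors had removed endothelial cells by their transcripts before deposit, so that count gives no limit for the sorted cells. The values below therefore describe the sorted cells and are not given as values of SCs. Depth lay between 41 and 5361476 reads per cell, and its median was 735206 for P60 cells and 772653 for P120 cells. Capture 10c stood apart, with a median of 451 reads per cell and 1 of 13 cells at 10000 reads or more. Shares of reads were taken over the 178 cells with at least 10000 reads, and genes detected over the 164 cells that could be thinned at random to 50000 reads.

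The mitochondrial members differed widely in level, and the amount of each gene that is also present in the nuclear genome is given first, since it limits what could be counted. Chromosome 1 of GRCm38 holds annotated pseudogene copies of a stretch of mitochondrial DNA on its minus strand, and a read that matches both places equally well is not assigned to a gene by unique counting. Stretches of 2 genes are shown because the genes as a whole differ in how well a read can be placed. The first is mt-Co1, the core catalytic subunit of complex IV, at chrM:6381-6500 (plus strand), against its pseudogene copy Gm29216 at chr1:24616078-24616197 (minus strand). Capitals mark the 6 bases that differ, all near the edge of the copy. The rest of the stretch is identical, and a read within that rest cannot be placed by its own bases.
mt-Co1: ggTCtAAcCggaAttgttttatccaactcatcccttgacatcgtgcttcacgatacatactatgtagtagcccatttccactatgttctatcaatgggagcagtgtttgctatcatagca
Gm29216: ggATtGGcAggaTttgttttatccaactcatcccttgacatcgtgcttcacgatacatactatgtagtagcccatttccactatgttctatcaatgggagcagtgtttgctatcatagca
The second is mt-Co2, the copper-binding subunit of complex IV, at chrM:7013-7132 (plus strand), against Gm28661 at chr1:24615446-24615565 (minus strand), which has no capitals because the 120 bases are identical.
mt-Co2: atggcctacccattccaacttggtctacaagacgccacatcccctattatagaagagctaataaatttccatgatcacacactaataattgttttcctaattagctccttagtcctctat
Gm28661: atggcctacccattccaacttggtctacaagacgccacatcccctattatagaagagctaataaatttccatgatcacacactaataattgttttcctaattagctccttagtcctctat

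For each member, the share of its 90-base windows (the read length) that also occur in another annotated transcript was counted. According to the paper the reads were paired, and placement of a read by its mate was not taken into account. The copy of mt-Co2 matched it at 681 of 681 bases, and 99.5% of the windows of mt-Co2 were shared. The copy of mt-Co1 begins at base 1054 of the gene, matched it at 486 of 492 bases, and left 33.4% of the windows shared. The share was 99.9% for mt-Co3, 99.5% for mt-Atp6, 98.6% for mt-Nd4l, 97.7% for mt-Nd3 and 61.1% for mt-Nd4. It was 4.22% for mt-Nd2 and 0.346% for mt-Nd5, and 0 for mt-Cytb, mt-Nd1, mt-Nd6 and mt-Atp8. The stretch of chromosome 1 between Gm10925 and Gm28661, where a copy of mt-Atp8 would lie, holds no annotated transcript and was not analysed here.

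**Figure D1:**
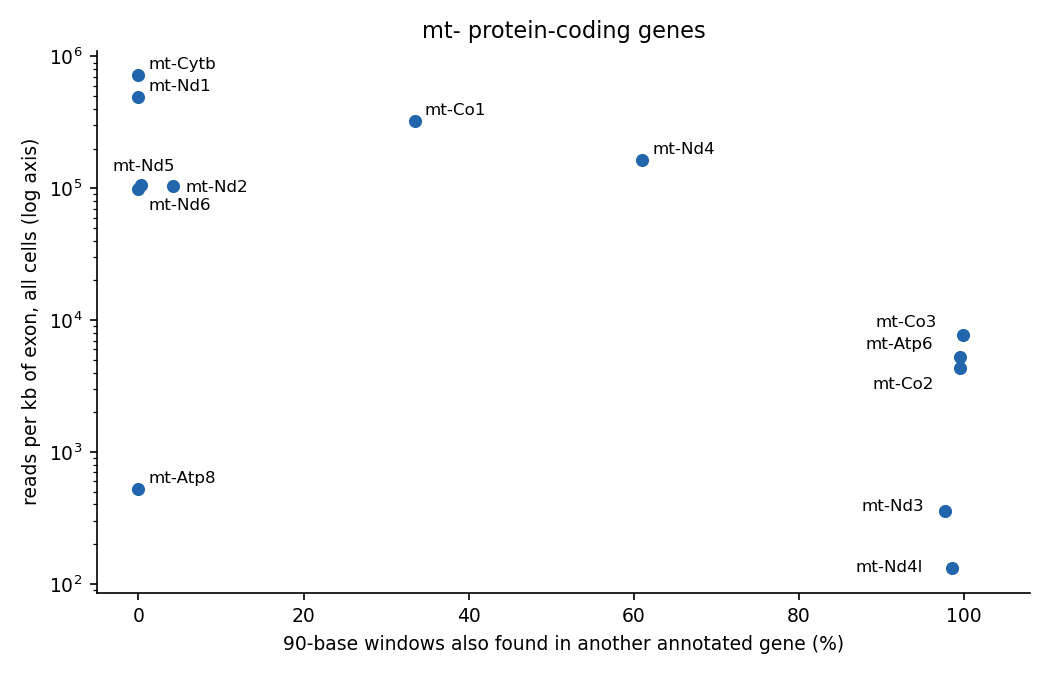
Reads summed over all cells on each mt- gene per kilobase of exon (y axis, log scale) against the percentage of its 90-base windows shared with another annotated transcript (x axis), 1 point per gene. The genes with 97.7% or more of their windows shared lie below all others except mt-Atp8, which shares no window with an annotated transcript.

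Genes with nearly all windows shared had few reads, as did mt-Atp8, which shared none. In total reads, mt-Cytb, the cytochrome b of complex III, had 822271 reads in 197 cells and held 34.6% of the reads of the mt- members. mt-Co1 had 496418 reads in 178 cells, and mt-Nd1, a membrane subunit of complex I, had 468843 reads in 182 cells. By contrast, mt-Co3, a structural core subunit of complex IV, had 6054 reads, mt-Atp6, which forms part of the proton channel of ATP synthase, had 3553, and mt-Co2 had 2961. The complex I subunits mt-Nd3 and mt-Nd4l had 125 and 39 reads. Pseudogene entries took similar or larger numbers, with 5193 reads on the copy of mt-Co3, 3391 on that of mt-Atp6, 2215 on that of mt-Co2 and 5794 on that of mt-Nd3. The levels of the 5 genes with 97.7% or more of their windows shared are therefore uncertain. Those of mt-Nd4 and mt-Co1, with 61.1% and 33.4% shared, may be too low.

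Per kilobase, mt-Cytb averaged 3461 ± 4925 CPM (counts scaled to the total reads on genes of each capture, SD, n = 12 captures), mt-Nd1 2003 ± 2297 and mt-Co1 1613 ± 1555. The complex I subunits mt-Nd4, mt-Nd5, mt-Nd6 and mt-Nd2 followed, at 821 ± 1187, 594 ± 1026, 593 ± 1051 and 445 ± 527 CPM per kilobase. Each of these neighbours differed by less than its spread between captures, and the places of mt-Co1 and mt-Nd4 also depend on their shared windows. mt-Nd6 is the only mt- protein-coding gene on the other strand, and since the kit keeps no strand, its reads cannot be told apart from RNA of the opposite strand. The step down to mt-Co3 at 40.0 ± 53 CPM per kilobase was more than 10-fold.

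The 97 nuclear members together had 1758264 reads, 0.799% of all reads on genes, against 2378795 reads, 1.0805%, for the 13 mt- members. A median nuclear member had a read in 30.3% of cells, 15 had one in more than 50% of the cells, 6 in 1 to 9 cells, and 4 had no read in any cell. Of the 97, 60 shared no 90-base window with another transcript, and 2 assembly factors shared most of theirs, Sdhaf1 with 68.5% and Ndufaf2 with 62.7%. Shared sequence was thus less common among nuclear than among mt- members.

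The nuclear members with the largest mean CPM in each complex were named. In complex I these were Ndufa13, also known as GRIM-19, at 25.2 CPM in its lowest capture, 132 in the median and 1169 in the highest, and Ndufa4, a small subunit now assigned to complex IV, at 33.5, 152 and 1305 CPM. In complex II, the flavoprotein subunit Sdha ranged from 0 to 1610 CPM with a median of 66.5, and the iron-sulfur subunit Sdhb from 0 to 218 with a median of 84.9. A single capture, 19c at P60, held the highest Sdha value. In complex III, the hinge protein Uqcrh ranged from 0 to 249 CPM with a median of 155, and Uqcrb from 0 to 387 with a median of 92.4. In complex IV, Cox6a1, a subunit of the enzyme's outer part, ranged from 0.636 to 1123 CPM with a median of 513, and Cox4i1, a regulatory subunit, from 8.39 to 1121 with a median of 234. In ATP synthase, the stalk subunit Atp5f1 ranged from 0 to 522 CPM with a median of 242, and the central shaft subunit Atp5c1 from 0 to 700 with a median of 156. All 10 thus varied widely between captures. Per kilobase of exon, Cox6a1 was highest at 672 ± 523 CPM (SD, n = 12), followed by Cox8a at 456 ± 863 and Cox6b1 at 391 ± 409, and none of these neighbours differed beyond its spread.

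Several complex IV subunits exist as pairs, with 1 form widespread and the other known from muscle, lung or testis. In each pair the widespread form had more reads. Cox4i1 had 48921 reads in 117 cells and Cox4i2, the form known from lung, 9 reads in 5 cells. Cox6a1 had 122182 reads in 144 cells, the most of any nuclear member, and the muscle form Cox6a2 had none. Cox7a2 had 22215 reads in 94 cells against 61 in 6 cells for the muscle form Cox7a1. Cox8a had 32452 reads in 112 cells against 486 in 2 cells for Cox8b. Ndufa4 had 41054 reads in 98 cells and Ndufa4l2, known as a gene induced by low oxygen, had none. The exception in degree was Cox6b2, known from testis, which had 5423 reads in 35 cells beside 42355 reads in 110 cells for Cox6b1.

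Promoters of nuclear members were examined because NRF1 and GABPA are known regulators of this gene class. Of the 97 members, 78 were matched to a RefSeq start (GRCm38.p6), and the 250 bases before it were searched on both strands. The NRF1 letters GCGCATGCG were found in 7 members (8.97%), namely Atp5g2, Atp5k, Atp5l, Cox6a1, Ndufa11, Ndufa8 and Ndufaf4, against 1.64% of the promoters of 27025 genes. The GABPA letters CCGGAAGT were found in 3 members (3.85%) against 3.23%, the YY1 letters AAGATGGCG in 1 (1.28%) against 0.710%, and TATAAA in 6 (7.69%) against 14.3%. These letter counts are descriptions, and no searched motif contains another. Median GC content was 57% in members and 52% in other genes, with medians of 14.5 and 6 CpG. Stretches of 2 members with the NRF1 letters are shown, with the match on either strand in capitals, from chr5:115349041-115349140 for Cox6a1 and chr2:36049339-36049438 for Ndufa8, both on the minus strand. The Cox6a1 match extends by 1 base because it reads the letters on both strands.
Cox6a1: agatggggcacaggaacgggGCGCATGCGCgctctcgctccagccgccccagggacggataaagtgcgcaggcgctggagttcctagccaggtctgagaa
Ndufa8: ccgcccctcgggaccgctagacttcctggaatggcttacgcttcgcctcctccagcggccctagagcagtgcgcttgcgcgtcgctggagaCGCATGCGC

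Respiratory chain transcripts overlapped between the ages. The summed share of reads on nuclear members, averaged over the cells of each capture, was 0.709 ± 0.381% at P60 (SD, n = 8 captures) and 0.530 ± 0.240% at P120 (SD, n = 4). At P60 the captures had a lowest value of 0.00721% (capture 10c, a single cell), a median of 0.878% and a highest of 1.04%, and at P120 the values were 0.191% in capture 36, 0.553% in 38, 0.623% in 32 and 0.752% in 28. The P120 values lay inside the P60 range, but without capture 10c the lowest P60 value was 0.296% in 20c and capture 36 lay below it. The summed share on mt- members was 1.07 ± 1.07% at P60, from 0.0107% in capture 20c to 3.14% in 21c with a median of 0.981%, and 1.15 ± 1.39% at P120, with values of 0.0484%, 0.242%, 1.24% and 3.08%. The ages overlapped fully and the spread between captures exceeded the difference of the means. Within sequencing run S059, the only one with both ages, P120 minus P60 was -0.277 percentage points for nuclear members and 0.172 for mt- members, over 2 P60 captures and 4 P120 captures.

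**Figure D2:**
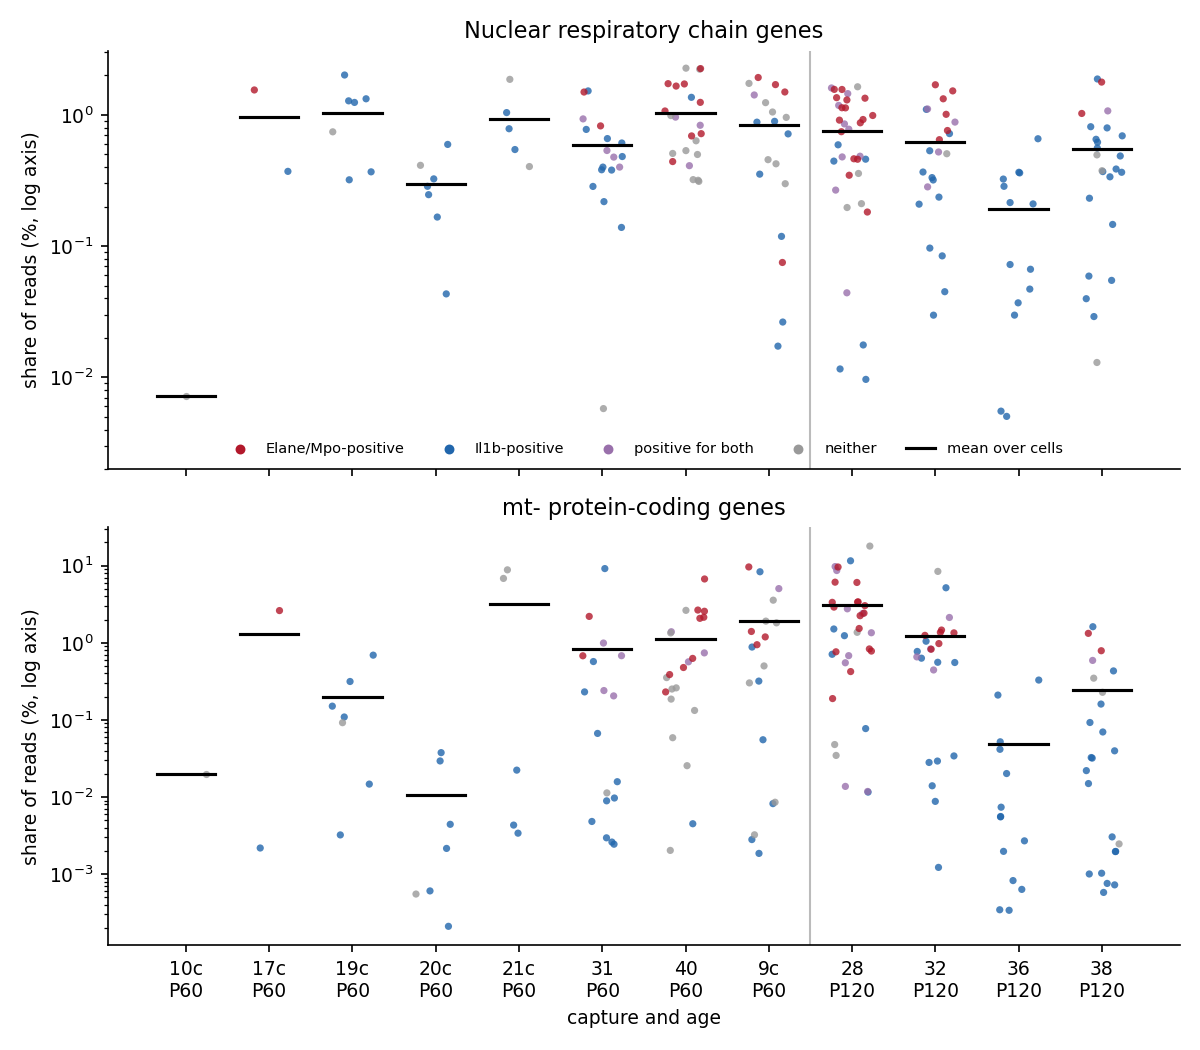
Percentage of reads on nuclear (upper) and mt- (lower) members in each cell with at least 10000 reads (y axis, log scale), by capture (x axis), with the class of each cell in colour and a bar for the mean of the capture. Captures of both ages cover the same range, and within a capture the mt- share spans up to several orders of magnitude.

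Genes detected behaved alike. After thinning, a capture averaged 20.1 ± 12.2 nuclear members per cell at P60 (SD, n = 8) and 19.6 ± 11.3 at P120 (SD, n = 4), and 4.46 ± 1.77 and 4.39 ± 2.84 mt- members. Over all genes the averages were 1204 ± 579 and 1283 ± 553. Captures with few genes detected were low in members too, and the share of members among all detected genes is given with the cell classes below.

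To test single genes, reads were summed per capture and fitted with the quasi-likelihood test of edgeR, p-values being adjusted by Benjamini-Hochberg over the 8346 genes that passed a filter on low counts. Of all genes, 10 (0.12%) passed an adjusted p of 0.05, and 443 (5.31%) had an unadjusted p under 0.05. Of the members, 85 nuclear and 10 mt- genes entered the fit, and 0 passed in either direction, with 0 at an unadjusted p under 0.05. With DESeq2, 7 genes (0.101% of 6919 with an adjusted p) passed, again with no member, and 1 nuclear member, Ndufa13, had an unadjusted p under 0.05 (log2 ratio -2.50, SE 1.19, DESeq2, unadjusted p = 0.0352). The median log2 ratio of P120 over P60 was -0.48 for nuclear members, -0.77 for mt- members and 0.26 for all genes tested. The median of the mt- members turned positive in 4 settings, being 0.57 with cells thinned to 50000 reads, 0.41 in the lanes shared by both ages, 0.34 with the sequencing run as covariate and 0.40 without capture 21c. As examples, mt-Cytb ranged from 56.4 to 19575 CPM over the P60 captures with a median of 1924, and was 16.1, 706, 2869 and 8628 CPM at P120. Its log2 ratio was -0.79 with an SE of 1.32 (edgeR, adjusted p = 0.99996), and the ages overlapped. Ndufv1, which carries the NADH-binding site of complex I and was singled out after its values were seen because it had the smallest p among members by edgeR, ranged from 0 to 1284 CPM at P60 with a median of 8.44, and from 0 to 39.4 CPM at P120. Its log2 ratio was -4.07 with an SE of 2.08 (edgeR, unadjusted p = 0.0509, adjusted p = 0.933), and the highest P60 value came from capture 21c alone.

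Capture 21c was also highest in several mt- genes, and it held the cells with the clearest SC markers. Of its 5 cells, 2 had 10 or more reads on 8 and 7 SC genes, with 1.21% and 4.87% of their reads on the SC list and about 0.002% on the neutrophil list. Those cells had 8.84% and 6.84% of their reads on mt- members and 1.86% and 0.404% on nuclear members. The other 4 cells positive for the SC list, in captures 28 and 31, had 3.78% to 14.6% of their reads on the neutrophil list and 0.680% to 2.39% on mt- members. The cells with clear SC markers were too few for a comparison.

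The members were then compared between classes of cells. Elane and Mpo encode proteases and peroxidase of the primary granules that neutrophil precursors make, and Il1b encodes the cytokine interleukin 1 beta. Cells with 10 or more reads of Elane or Mpo and fewer than 10 of Il1b numbered 43, and those with 10 or more of Il1b and fewer than 10 of Elane and of Mpo numbered 92. A further 24 cells had both and were left out, and 52 had neither. Cycling genes (Mki67 or Top2a) reached 10 reads in 29 of the 43 Elane/Mpo-positive cells and 10 of the 92 Il1b-positive cells, and the basophil genes Mcpt8 or Prss34 did so in 13 and 11. The classes also differed in depth, with median reads of 1757947 and 697663 over cells with at least 10000 reads. The part of cycling, basophil genes and depth in the results below was not tested by a model.

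Over cells, nuclear members took a median of 1.13% of reads in 40 Elane/Mpo-positive cells and 0.361% in 85 Il1b-positive cells, with 0.805% in 22 cells with both and 0.495% in 31 with neither. For mt- members the medians were 1.43%, 0.0201%, 0.710% and 0.251%. Thus 60 of 85 Il1b-positive cells (70.6%) had less than 0.1% of their reads on mt- members. None of 40 Elane/Mpo-positive cells did, which allows a share of up to 7.50%, and 26 of them (65%) had 1% or more. Mitochondrial ribosomal RNA, which was not a member, differed less, with medians of 0.570% and 0.357%. Cells are not replicates, and the classes were therefore compared within captures.

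Of the 12 captures, 4 had at least 3 cells of each class, although in capture 38 only 2 Elane/Mpo-positive cells had the reads needed for shares and genes detected. The mean nuclear share was 0.954% in Elane/Mpo-positive and 0.256% in Il1b-positive cells of capture 28, 1.16% and 0.339% in capture 32, 1.40% and 0.473% in capture 38, and 1.30% and 0.429% in capture 9c. The classes did not overlap, with means of 1.20 ± 0.193% and 0.374 ± 0.0966% (SD, n = 4 captures) and a paired difference of 0.829 ± 0.0976 percentage points. The ratio of the classes lay between 2.96 and 3.73. Of the 5775 genes fitted below, 15% were also higher in Elane/Mpo-positive cells without overlap. Scaled by total reads, the median log2 ratio was 2.21 for these genes and 3.90 for the nuclear members among them. Among the 7 captures with at least 1 cell of each class, a set added after seeing the data, the share was higher in Elane/Mpo-positive cells in 6, the exception being capture 40 with 1.28% against 1.36% in its single Il1b-positive cell.

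The mean mt- share was 2.94% and 2.52% in capture 28, 1.20% and 0.738% in 32, 1.06% and 0.140% in 38, and 3.29% and 1.37% in 9c, in Elane/Mpo-positive and Il1b-positive cells. It was higher in Elane/Mpo-positive cells in each capture, by 0.931 ± 0.697 percentage points (SD, n = 4), but the classes overlapped. In capture 9c each mean rested largely on 1 cell. Of the 4 Elane/Mpo-positive cells, 1 had 18672 reads, with 9.63% on mt- members and 56.9% on mitochondrial ribosomal RNA. The other Elane/Mpo-positive cells had 1.40%, 0.944% and 1.19% on mt- members, against the Il1b-positive mean of 1.37%. Of the 7 Il1b-positive cells, 1 had 656510 reads, with 8.34% on mt- members and 10.7% on mitochondrial ribosomal RNA. The other Il1b-positive cells had between 0.00186% and 0.881% on mt- members. Taken as the median over cells, an alternative added after seeing the data, the values were 2.66% and 0.973%, 1.30% and 0.295%, 1.06% and 0.0185%, and 1.30% and 0.0553%, and did not overlap. In each capture the mean of the Il1b-positive cells thus lay above their median. The number of Il1b-positive cells below 0.1% ran from 2 of 6 in captures 19c and 28, through 4 of 7 in 9c and 6 of 12 in 32, to 8 of 11 in 31, 15 of 18 in 38, 12 of 14 in 36, 3 of 3 in 21c and 6 of 6 in 20c. The median share on mitochondrial ribosomal RNA was higher in Elane/Mpo-positive cells in 1 of these 4 captures.

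**Figure D3:**
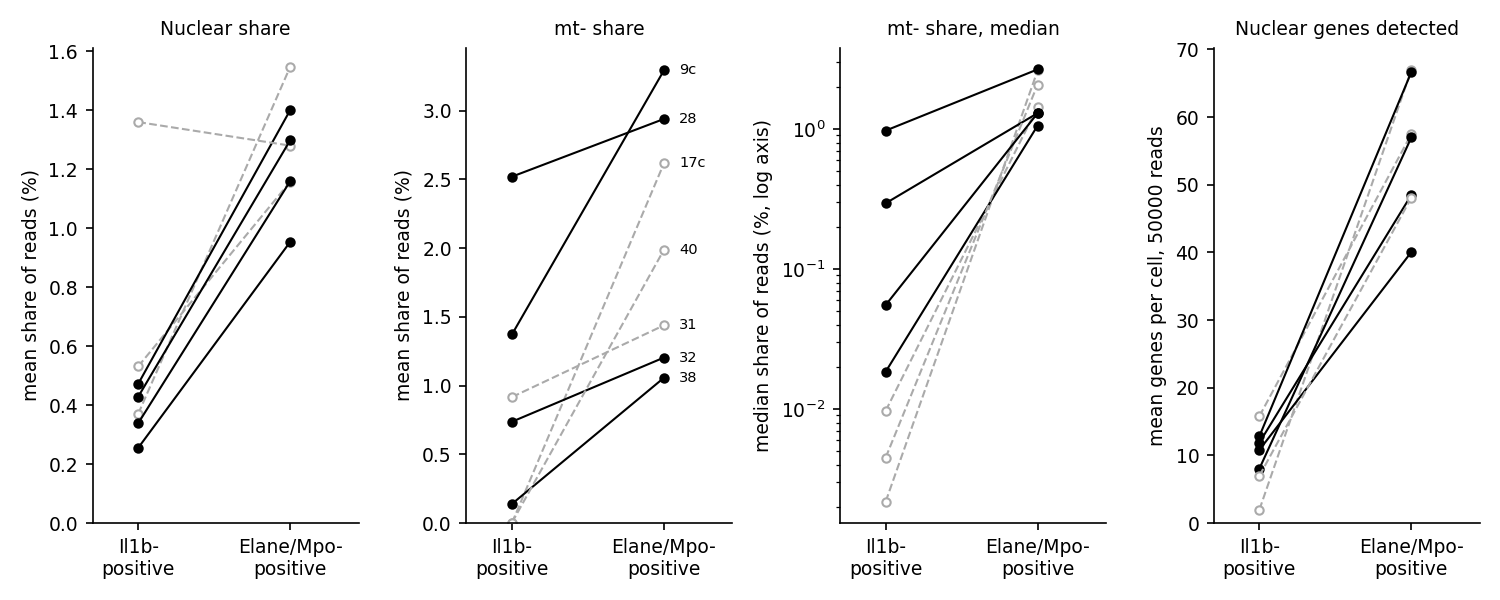
Value of each capture (y axes, mean share of reads in %, median share on a log axis, or mean genes per cell) in Il1b-positive and Elane/Mpo-positive cells (x axes), joined by a line, solid for the 4 captures with at least 3 cells of each class and dashed for the other 3. In the solid lines, nuclear share and nuclear members detected do not overlap between the classes, whereas the mean mt- share overlaps and is higher in Elane/Mpo-positive cells in 4 of 4 captures.

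After thinning, Elane/Mpo-positive cells had 40.1, 48.5, 57 and 66.7 nuclear members detected in captures 28, 32, 38 and 9c, and Il1b-positive cells 10.8, 11.9, 8.07 and 12.9. The paired difference was 42.1 ± 11.3 members (SD, n = 4), without overlap. For mt- members the means were 8.88 ± 0.534 and 3.93 ± 1.56. All genes moved the same way, with 2552 ± 512 and 1067 ± 339 genes detected. Nuclear members nevertheless made up a larger part of the detected genes, at 2.07 ± 0.267% against 0.980 ± 0.216%, and this part was higher in Elane/Mpo-positive cells in 4 of 4 captures. The fold between the classes was thus larger for nuclear members than for all genes detected, which was not so for mt- members in captures 32 and 9c.

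**Figure D4:**
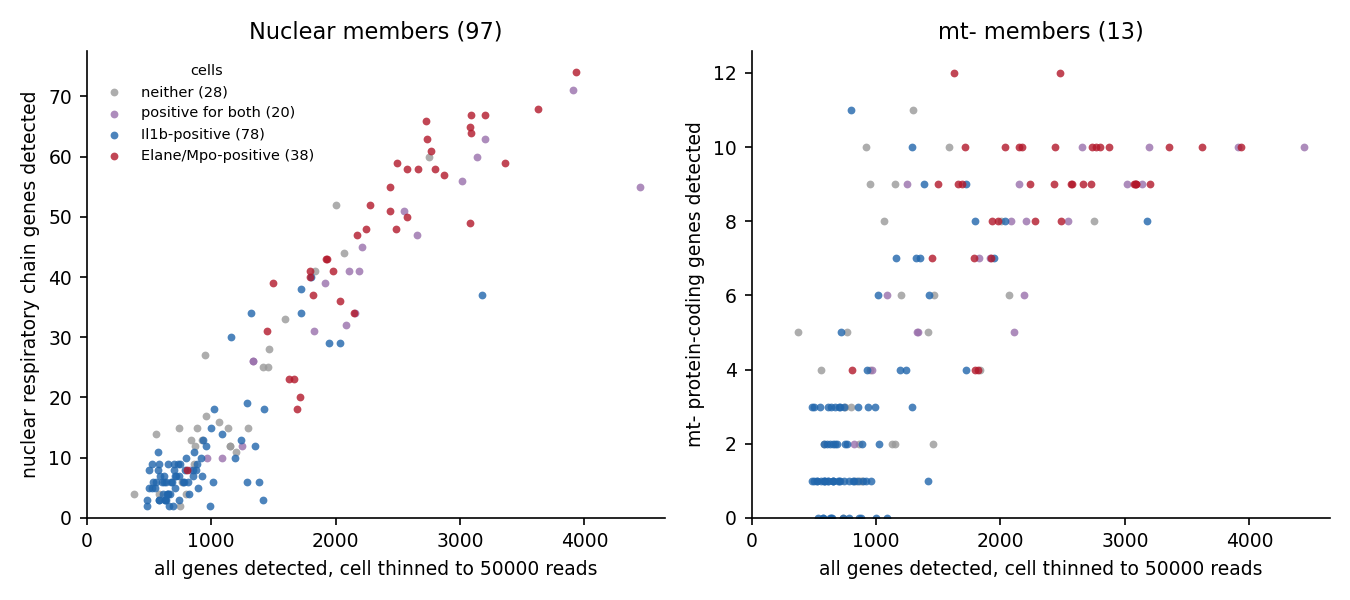
Nuclear (left) and mt- (right) members detected per cell (y axes) against all genes detected per cell (x axes) after thinning to 50000 reads, 1 point per cell, with the class in colour. Elane/Mpo-positive cells average 47.9 nuclear and 8.82 mt- members and Il1b-positive cells 9.95 and 2.67.

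Reads on nuclear members were also spread over more genes. In Il1b-positive cells, 5, 6, 6 and 9 members held 50% of the nuclear members' reads in captures 28, 32, 38 and 9c, against 16, 14, 12 and 17 in Elane/Mpo-positive cells. The 5 leading members took 52.5%, 46.7%, 47.2% and 38.9% of those reads in Il1b-positive cells and 24%, 31.9%, 30.1% and 23% in Elane/Mpo-positive cells. The leading Il1b-positive gene differed between captures, being Uqcrc2, Uqcrc1, Atp5c1 and Ndufb10. The sums of Il1b-positive cells came from 7, 13, 18 and 7 cells and those of the other class from 16, 7, 3 and 4. Genes detected were also fewer over all genes in Il1b-positive cells, and the spread of reads over all genes was not compared.

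Single genes were tested on reads summed per capture and class, with the capture as a block, over 5775 genes. By edgeR's quasi-likelihood test, 18 genes (0.312%) were higher and 90 (1.56%) lower in Elane/Mpo-positive cells at an adjusted p of 0.05, and at an unadjusted p under 0.05 541 (9.37%) were higher and 323 (5.59%) lower. Scaled by total reads without a TMM factor, 66 genes were higher and 48 lower, and the median log2 ratio of all genes was 2.21 in place of 1.28. Of the 82 nuclear and 11 mt- members in the fit, 0 passed in either direction, with 7 nuclear members higher and none lower at an unadjusted p under 0.05, and no mt- member. A gene could enter the fit through the class in which it was high, so the members in the fit are not all members. DESeq2 on the same sums called 1283 genes higher (22.2%) and 567 lower (9.82%), among them 30 nuclear members higher, 0 lower and 0 mt- members. The number of members called thus depended on the tool, while the median log2 ratio of nuclear members was 2.87 by edgeR and 2.89 by DESeq2.

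By edgeR, the median log2 ratio of all genes tested was 1.28 and that of mt- members 0.97. The median of mt- members was -0.0040 with cells thinned to 50000 reads, -0.050 without cells with Mcpt8 or Prss34 and 1.98 when scaled by total reads. It lay between 0.40 and 1.38 when a capture was left out. It was above 0 under 16 of 18 settings, but its size was not settled and no mt- member passed the adjusted threshold under any. Ratios were above 0 for 73 of 82 nuclear members (89%) and 62.6% of all genes. By capture, 42 nuclear members (51.2%) were higher in Elane/Mpo-positive cells in every capture, against 25% of all genes, and 23 (28%) did not overlap, against 15%. Among mt- members these numbers were 4 and 1 of 11. The median of the nuclear members exceeded that of all genes under each of the 18 settings tried, whereas that of the mt- members did so under 6. The nuclear excess was smallest, at 0.37, in the setting that kept captures 28 and 32 only.

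By complex, the median log2 ratio was 2.89 over 37 complex I genes, 4.44 over 4 complex II genes, 4.21 over 8 complex III genes, 1.71 over 12 complex IV genes and 2.16 over 16 ATP synthase genes. DESeq2 called 14, 3, 4, 1 and 6 of these higher, and 1 of 3 complex I and 1 of 2 complex II assembly factors, against 22.2% of all genes. Differences between complexes were not tested.

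**Figure D5:**
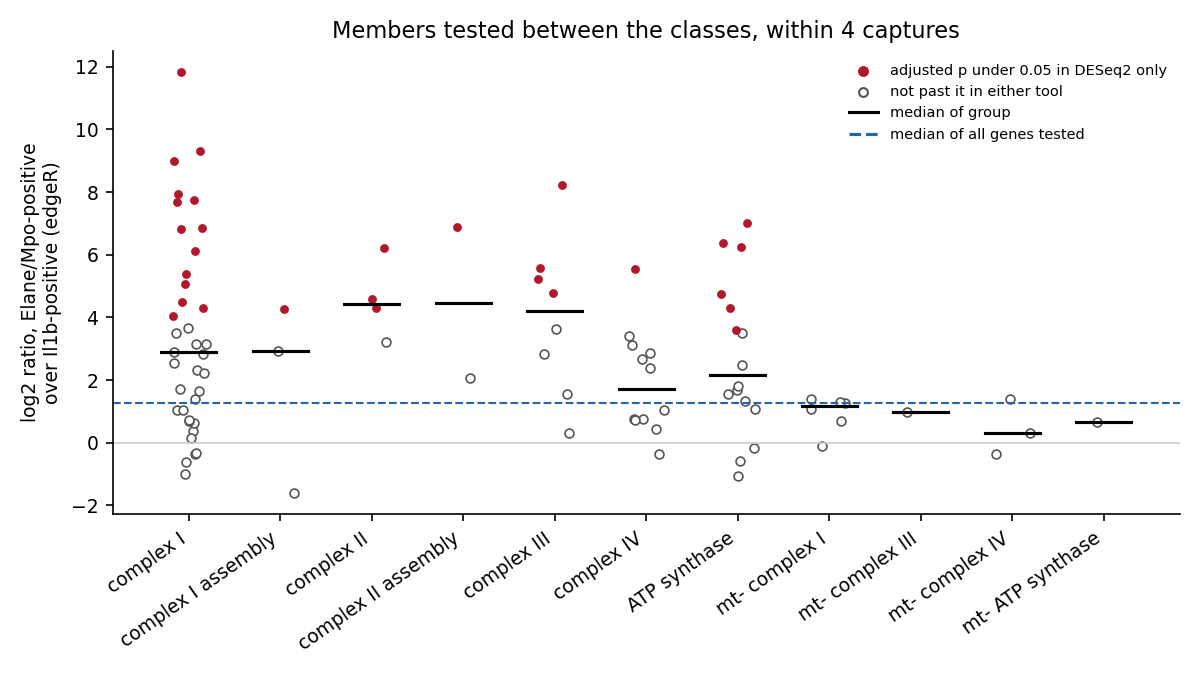
Log2 ratio of Elane/Mpo-positive over Il1b-positive cells by edgeR (y axis) for each member in the fit, by complex (x axis), filled where DESeq2 gave an adjusted p under 0.05, with a bar for the median of each group and a dashed line for the median of all genes tested, 1.28. Of the nuclear members, 73 of 82 lie above 0, and the mt- members lie between -0.35 and 1.41.

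In complex I, Ndufa4 had 337, 232, 360 and 544 CPM in Elane/Mpo-positive cells of captures 28, 32, 38 and 9c and 32.6, 3.16, 98 and 0.354 CPM in Il1b-positive cells. The classes did not overlap, and the log2 ratio was 4.04 with an SE of 2.58 (edgeR, adjusted p = 0.456, DESeq2, adjusted p = 0.0374). Ndufa13 showed no such separation, with 134, 142, 47 and 191 CPM against 113, 158, 0.894 and 111, and a log2 ratio of 0.38 with an SE of 2.37 (edgeR, adjusted p = 0.966).

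By edgeR, 7 of the 82 nuclear members had an unadjusted p under 0.05, all higher, a share no larger than the 9.37% of all genes. These 7 were chosen after their values were seen. Among them were 5 of the 37 complex I genes in the fit, namely Ndufa5, Ndufa11, Ndufs3, Ndufs5 and Ndufs8. The others were Uqcrc2 of complex III and Atp5a1 of ATP synthase. Ndufa5, a subunit of the matrix arm, had 59.9, 83.6, 44.9 and 33.7 CPM in Elane/Mpo-positive cells and no read in Il1b-positive cells of the same captures. Its mean was 635-fold and its lowest capture 385-fold above a floor of 3 counts over the 34357608 reads of those cells (edgeR, adjusted p = 0.0938). The reads are amplified copies without molecular identifiers, so this floor is not a limit on molecules or on the fold. Ndufa11, a membrane subunit, had 99.2, 100, 80.4 and 162 CPM against 0.136, 0, 0.298 and 0 (log2 ratio 9.32, SE 3.49, edgeR, adjusted p = 0.138). Neither gene overlapped between the classes, and the same was true of Ndufs5 and Ndufs8.

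In complex II, Sdha had 17.5, 113, 210 and 326 CPM in Elane/Mpo-positive cells and 1.09, 0, 9.39 and 338 in Il1b-positive cells, with a log2 ratio of 3.22 and an SE of 2.77 (edgeR, adjusted p = 0.593). Sdhb had 384, 326, 3.06 and 472 against 0.136, 4.55, 0.224 and 166 CPM, with a log2 ratio of 4.28 and an SE of 2.71 (edgeR, adjusted p = 0.452, DESeq2, adjusted p = 0.0214). Both overlapped, and the high Il1b-positive value of both came from capture 9c.

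In complex III, Uqcrb was higher in Elane/Mpo-positive cells in each capture, with 261, 177, 102.6 and 320 CPM against 119, 42, 0 and 0 (log2 ratio 5.57, SE 4.15, edgeR, adjusted p = 0.529, DESeq2, adjusted p = 0.0113). That ratio moved between 2.19 without capture 9c and 9.58 without capture 28. Uqcrh had 452, 101.5, 336 and 123 against 0.136, 41.5, 293 and 320 CPM and a log2 ratio of 0.32 with an SE of 2.21 (edgeR, adjusted p = 0.970). Uqcrc2, a core protein of the complex, had 82.6, 284, 25.3 and 97.9 CPM against 774, 0, 0 and 0.354. Its fitted log2 ratio was 8.21 (SE 3.41, edgeR, adjusted p = 0.199), although its mean CPM was higher in Il1b-positive cells, with capture 28 alone above the other class.

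In complex IV, Cox6a1, the nuclear member with the highest mean CPM per kilobase, had 703, 1220, 724 and 1299 CPM in Elane/Mpo-positive cells and 519, 298, 451 and 261 in Il1b-positive cells. It did not overlap between the classes, and its log2 ratio of 0.45 with an SE of 1.34 (edgeR, adjusted p = 0.916) lay below the median of all genes. Cox4i1 had 186, 157, 812 and 399 against 2.18, 233, 44 and 40.4 CPM, with a log2 ratio of 2.66 and an SE of 2.25 (edgeR, adjusted p = 0.585).

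In ATP synthase, the catalytic-ring subunit Atp5a1 had 137, 597, 474 and 817 CPM in Elane/Mpo-positive cells and 3.13, 0.558, 26.8 and 1.06 in Il1b-positive cells, without overlap (log2 ratio 6.38, SE 2.57, edgeR, adjusted p = 0.184). Atp5c1 had 229, 1022, 1124 and 411 against 2.58, 51.9, 853 and 522 CPM and a log2 ratio of 1.69 with an SE of 1.84 (edgeR, adjusted p = 0.691), which was 0.42 without capture 28 and 2.94 without 38. Atp5f1 had 629, 644, 422 and 356 against 617, 444, 332 and 69.5 CPM, and its log2 ratio was -0.16 with an SE of 1.47 (edgeR, adjusted p = 0.978). The fitted sign ran against its CPM, which was higher in Elane/Mpo-positive cells in 4 of 4 captures, and scaled by total reads the log2 ratio was 0.86. Subunits of 1 enzyme thus differed in how far apart the classes lay.

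Of the mt- genes, mt-Nd1 had 6161, 3118, 1730 and 2941 CPM in Elane/Mpo-positive cells and 744, 608, 241 and 2136 in Il1b-positive cells, with a log2 ratio of 1.28 and an SE of 0.97 (edgeR, adjusted p = 0.539). mt-Cytb had 12056, 4322, 3666 and 2736 against 4733, 1070, 39.6 and 5974 CPM, and mt-Co1 had 2645, 2603, 2477 and 3726 against 3096, 1274, 232 and 11942 CPM. Both overlapped between the classes and were lower in Elane/Mpo-positive cells of capture 9c, and mt-Co1 also in 28. Their log2 ratios were 0.97 (SE 0.90) and -0.35 (SE 0.90), with adjusted p-values of 0.630 and 0.899 by edgeR. Most mt- reads in the Il1b-positive sum of capture 9c came from 1 cell, with 8.34% of its 656510 reads on mt- members. In the Il1b-positive sum of capture 28, most came from 1 cell with 1.51% of 3610974 reads, which was also positive for the SC list. The other mt- genes in the fit had log2 ratios of 1.40 for mt-Nd5, 1.30 for mt-Nd2, 0.69 for mt-Nd6 and -0.12 for mt-Nd4, none with an adjusted p under 0.5. Among the genes with nearly all windows shared, the ratios were 1.41 for mt-Co3, 1.085 for mt-Nd3, 0.66 for mt-Atp6 and 0.33 for mt-Co2. mt-Nd3, at 1.29, 1.24, 1.53 and 1.11 against 0.544, 0.279, 0.0745 and 0.709 CPM, was the only one in the fit without overlap. These values rest on few reads, since mt-Nd3 had 125 over all cells and 97.7% of its windows were shared.

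Other mitochondrial genes were counted from lists. In the class comparison, edgeR called 0 genes of any of these lists, and at an unadjusted p under 0.05, where 9.37% of all genes were higher, it found 12 of 47 mitochondrial ribosomal proteins higher (median log2 ratio 5.49), 5 of 12 genes of the tricarboxylic acid cycle and pyruvate dehydrogenase (6.84), 3 of 11 carriers, import and chaperone genes (3.91), 3 of 10 assembly factors outside the rule (4.70), 1 of 6 transcription and biogenesis genes (1.43) and neither cytochrome c nor c1 (2.42). DESeq2 called 29, 7, 5, 4, 1 and 1 of them higher, against 22.2% of all genes. Each of these medians lay above that of all genes, 1.28. Between the ages, edgeR called 1 gene of these lists, Ssbp1, which binds single-stranded mitochondrial DNA, with a log2 ratio of P120 over P60 of -8.79 (SE 1.98, adjusted p = 0.0159). This rested on the shallow capture 10c, where Ssbp1 had 26266 CPM against at most 97.6 CPM in any other capture, and without it the log2 ratio was 0.89 (SE 2.24, edgeR, adjusted p = 0.9996). DESeq2 called none of the lists' genes between the ages.

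Whether the class difference itself changed with age could not be fitted on the 4 captures, since 1 of them was from P60. On the 7 captures with at least 1 cell of each class, a fit added after seeing the data, the class by age interaction passed an adjusted p of 0.05 for 0 of 4392 genes (0% by edgeR), with 114 at an unadjusted p under 0.05, 1 of them a nuclear member. In the class fit on the same 7 captures, with 314 of the 4392 genes (7.15%) higher in Elane/Mpo-positive cells, 5 of 79 nuclear members were called higher.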

How the data were processed

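Adult Lfng-EGFP cochlear cells were profiled after FACS and capture on the Fluidigm C1, with SMARTer cDNA and Nextera XT libraries that keep no strand and no molecular identifiers. According to the methods and labels, the authors aligned the reads with STAR v2.5 to GRCm38 (mm10) with the vM11 annotation and deposited raw read counts per gene and cell, after removing outlier and endothelial cells. The deposited normalized GFP intensity is a score scaled by the authors and was not used in a result. The sources differ on the number of cochleae per capture. Spike-in sequences were left out, and 48349 genes were matched to GENCODE vM21 symbols. No doublet caller was run.

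Sums of counts over the cells of a capture, or of a class within it, were fitted with edgeR 4.0.16 (TMM, filterByExpr, quasi-likelihood F test, Benjamini-Hochberg) in R 4.3.3, with DESeq2 1.42.0 as an alternative. The class fit used 4 captures with at least 3 cells of each class, each capture giving both classes, so the capture was a block. Shares and genes detected are sums over members and were given per capture without a test. Limits for a count of 0 take 3 counts and cover counting error only. Python 3.11.15 with numpy 2.4.6, pandas 2.3.3 and matplotlib 3.10.9 served for tables and plots. Scripts were tested on simulated data. The members and lists were chosen with earlier results of these data known. Genes were named by rule, namely all mt- genes, the 2 nuclear members of each complex with the largest mean CPM, members past the adjusted threshold by edgeR and the isoform pairs, and further genes are marked as chosen after their values were seen.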

Additional observations from a re-analysis of the deposited data

Results flagged for a closer look

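Captures that lay far from the others were sought in 71 groups of values, and 16 were found, where chance gives about 1 in 20 groups if values are normally distributed, which was not tested for these CPM. In Il1b-positive cells, capture 9c stood far above the other 3 captures for Sdha at 338.4 CPM, Sdhb at 165.5 CPM, Ndufs3 at 60.2 CPM, mt-Nd2 at 535 CPM, mt-Co2 at 42.2 CPM and mt-Co3 at 69.1 CPM. Most mt- reads in that sum came from 1 cell, with 8.34% of its 656510 reads on mt- members. For other nuclear members in the same class, capture 28 had 774 CPM of Uqcrc2, capture 38 had 26.8 CPM of Atp5a1 and capture 32 had 2.23 CPM of Ndufs5. In Elane/Mpo-positive cells, capture 28 stood above the rest for mt-Cytb at 12056 CPM, mt-Nd5 at 3600 CPM, mt-Nd4 at 3422 CPM, mt-Nd6 at 894 CPM, mt-Co3 at 81.1 CPM and mt-Co2 at 38.9 CPM, and capture 9c for mt-Co1 at 3726 CPM.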

How the results depend on the processing

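Between the ages, 0 members passed the adjusted threshold under any of the 20 alternatives run. Among these, the setting without the shallow capture 10c and the leave-one-out fit of 10c are the same fit. The difference in nuclear share, P120 minus P60, was below 0 under all 18 alternatives, and that in mt- share was above 0 under 12 of 18. Between the classes, the number of nuclear members higher in Elane/Mpo-positive cells went from 0 of 82 to 30 of 82 with DESeq2, against 22.2% of all genes. It was 1 of 63 with cells thinned to 50000 reads, where 10 of 2887 genes were higher. It was 1 of 83 with cells positive for both counted with the precursors, where 93 of 6344 genes were higher. With captures of at least 1 cell of each class, added after seeing the data, it was 5 of 79, against 7.15% of all genes there. The cause was not tested. The number stayed at 0 when each capture was left out. The median log2 ratio of nuclear members less that of all genes was 1.60 and became 0.89 with no replicate block for the capture and 0.98 with 100 or more reads for a class. It was 0.37 with at least 5 cells of each class, which left captures 28 and 32 only. It was 0.71 with cells positive for both, 2.90 without cycling cells and 2.57 without cells with Mcpt8 or Prss34, the last added after seeing the data. Leaving out a capture gave 1.082 to 1.84. The class difference in nuclear share became 0.603 with uniquely mapped reads as denominator, 0.970 with medians over cells and 0.720 with at least 1 cell of each class, both added, and 0.796 to 0.872 without single captures. With 10 or more reads for detection, the difference in nuclear members detected was 17.1 in place of 42.1.

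Log2 ratios of some named genes changed in size, with lowest values of 0.58 for Uqcrb (at least 5 cells of each class), 0.064 for Atp5c1 (no block) and 1.71 for Ndufs3 (100 reads), and others changed sign. Ndufa13 fell to -0.46 with thinning, -0.46 without the replicate block, -0.997 with 100 reads, -0.98 with at least 5 cells and -0.60 with cells positive for both. Uqcrh was -0.23 and Uqcrc2 -1.72 without the block, Uqcrc2 was -1.25 without Mcpt8 or Prss34 cells, and Cox6a1 was -0.092 in P120 captures only. Atp5f1 became 0.86 with total reads, 0.92 with thinning, 0.28 with 100 reads, 4.95 without Mcpt8 or Prss34 cells and 0.84 with at least 1 cell. Of the mt- genes, mt-Nd1, mt-Nd2, mt-Nd3 and mt-Nd5 kept their sign where fitted. mt-Co1 became 0.64 with total reads, 0.069 with cells positive for both, 0.25 in P120 captures only and 2.13 with at least 1 cell. mt-Nd4 became 0.87 with total reads, 0.075 without the block, 0.034 with 100 reads, 0.20 with at least 5 cells, 0.13 with cells positive for both, 0.13 in P120 captures only, 0.15 without Mcpt8 or Prss34 cells and 1.57 with at least 1 cell. Without Mcpt8 or Prss34 cells, mt-Co2 was -0.56, mt-Atp6 -0.38, mt-Nd6 -0.15 and mt-Cytb -0.94. mt-Co2 was -0.12 without the block, and with thinning mt-Co3 was -0.042 and mt-Nd6 -1.07. The fit on P120 captures only is the same as that without capture 9c, so its values return below. Leaving out a capture gave -0.53 to 1.04 for Ndufa13 (lowest without 38), -0.78 to 1.27 for Uqcrh (without 28), -0.092 to 0.90 for Cox6a1 (without 9c), -0.83 to 0.24 for Atp5f1 (above 0 without 28 or 38), -1.13 to 0.25 for mt-Co1 (above 0 without 28 or 9c), -0.0093 to 0.98 for mt-Co2 and -0.054 to 1.92 for mt-Cytb (both below 0 without 38), and -0.56 to 0.15 for mt-Nd4 (above 0 without 32 or 9c).

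Between the classes, mt-Nd1, mt-Nd2, mt-Nd3 and mt-Nd5 thus stayed above 0 where fitted, but no mt- gene passed the adjusted threshold under any setting. For the other mt- genes in the fit, the direction was not settled by these captures. A threshold of 1 read for a class left 0 captures with 3 cells of each class and gave no value, and the planned interaction could not be fitted. Capture means rest on as few as 1 cell, and intervals cover counting error only.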
